A study of Mus musculus with 18 samples.

Results

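Translation factor mRNAs were taken as the mRNAs of mouse protein-coding genes whose symbol starts with Eif or Eef and a digit, together with Pabpc1, Pabpc4, Etf1, Gspt1 and Tpt1. The mm10 RefSeq annotation held 76 such genes among 21013 protein-coding genes. In their exons, on the strand of the gene, lay 353 of the 18059 distinct mRNA sites of 5-methylcytosine (m5C) that were listed in 9 bisulfite libraries. These sites fell in 29 of the 76 genes, or 38.2%, against 2607 of all 21013 genes, or 12.4%.

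The libraries are labelled as primary neurons of the cerebral cortex of C57BL/6 mice, taken from fetuses at day 18. Control cells were left untreated. OGD/R 1.5 h and OGD/R 3 h cells were kept without glucose in a hypoxic chamber for 1.5 h or 3 h (oxygen and glucose deprivation) and then returned to normal medium for 24 h (reoxygenation). The gas mixture given in the labels adds up to more than the whole, so the oxygen level is uncertain, and a culture from embryonic cortex lacks the blood supply and the mature cells of a brain after stroke. Each group had 3 bisulfite libraries. Bisulfite turns cytosine into uracil unless it is methylated, and a site is a cytosine that the authors called as methylated in a library, from 10 reads or more with the base retained in 0.1 or more of them. The listed score of a site, from 0 to 1000, rises with coverage and level together. Neither can be read from it. Coverage was at hand for part of the sites, in control and OGD/R 3 h, and was used only to compare replicates, so more sites from more coverage and more sites from more methylation were not told apart. Between replicates of these groups it differed by less than the sampling noise, so the 3 libraries of a group were counted as 1 sample. OGD/R 1.5 h, for which no coverage was held, was counted in the same way without this check. Differences between groups have no replicate check, no p-value is given, and ranges describe the spread between libraries.

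The label of the cells was checked against marker genes. None of the 10 neuronal markers, Tubb3, Map2, Rbfox3, Snap25, Syt1, Stmn2, Nefl, Nefm, Dcx and Gap43, carried a site in any of the 9 libraries, and of 5 astrocyte markers only Aldh1l1 did, with at most 1 site in a library, while Gfap, Aqp4, Slc1a3 and Slc1a2 were at 0. All 10 intestinal epithelial markers (Vil1, Fcgbp, Epcam, Muc2, Krt20, Cdh17, Lgals4, Fabp1, Fabp2 and Apoa1) carried sites, at 73, 63 and 57 summed sites in the control libraries, 37, 41 and 40 in OGD/R 1.5 h and 152, 148 and 150 in OGD/R 3 h. Fcgbp carried more than any other of them over all libraries, with 12, 13 and 10 in the control libraries, 12, 16 and 13 in OGD/R 1.5 h and 72, 69 and 66 in OGD/R 3 h. Of 5 erythroid markers, Hbb-bs and Hbb-bt carried 31 sites in each OGD/R 3 h library, 25 of them in Hbb-bs, and 0 in the other libraries, while Hba-a1, Hba-a2 and Alas2 were at 0 throughout. Of 7 neutrophil markers, Ngp, S100a8 and S100a9 carried 21 sites in each OGD/R 3 h library, 9 of them in S100a8, and 0 elsewhere, while Camp, Ltf, Mpo and Elane were at 0. Of 5 smooth muscle markers, Acta2, Myh11, Tagln and Des carried sites, at 15, 12 and 7 in the control libraries, 10, 10 and 8 in OGD/R 1.5 h and 8, 11 and 11 in OGD/R 3 h, with more in Myh11 than in any other over the 9 libraries together, and Cnn1 was at 0. These lists go against the neuronal label, although a gene without a listed site may still be expressed. The authors, for their part, stained the cultures for β-III tubulin, a protein of neurons, and for GFAP of astrocytes, and describe neuronal terms among genes with lower expression after OGD/R; neither was analysed here. The part of the cells' origin in the results that follow was not tested, and group names below are those of the labels.

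Protein synthesis starts when eIF2 brings the initiator tRNA to the small ribosomal subunit and the eIF4 factors, with eIF3 and the poly(A) binding protein, bring that subunit to the capped mRNA. The eEF1 and eEF2 factors then drive elongation, and the release factors end it. Cells short of oxygen or glucose are known to slow protein synthesis by phosphorylating eIF2 and eEF2. Many elongation factor mRNAs belong to a class that starts with a pyrimidine tract and is translated according to the supply of nutrients.

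The sequences around the sites that stand for each group are shown first, from the mm10 (GRCm38) genome, 5′ to 3′ on the strand of the gene, with the cytosine of the site itself in capitals; others called nearby are in lower case. The Eif3a site was the only one called in at least 8 libraries, and the others had, in each group, the 4 highest median scores among sites called in all its 3 libraries and in no other library. Sites whose 21 nt reach beyond their exon are not shown. Of the sites of these 9 sequences, the 2 of Eef1a1 in the start codon region have a copy of their 51 nt in an annotated pseudogene.
Eif3a, stop codon region, all 9 libraries, chr19:60762147-60762167, minus strand: tcctggagagCtgagaaagat
Eef2, coding sequence, control, chr10:81179184-81179204, plus strand: agggtgagggCcagctgagcg
Eif4g1, coding sequence, control, chr16:20679945-20679965, plus strand: gaggagaggaCgtcccccttg
Eif5a, coding sequence, OGD/R 1.5 h, chr11:69919200-69919220, minus strand: gctcaaaggcCggccatgtaa
Eif4g2, start codon region, OGD/R 1.5 h, chr7:111081521-111081541, minus strand: agtgcgattgCagaagggggt
Eef1a1, coding sequence, OGD/R 3 h, chr9:78479041-78479061, minus strand: ggaagatggcCccaagttcct
Eef1a1, start codon region, OGD/R 3 h, chr9:78480621-78480641, minus strand: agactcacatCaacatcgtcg
Eef1a1, start codon region, OGD/R 3 h, chr9:78480615-78480635, minus strand: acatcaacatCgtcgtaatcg
Eif4h, start codon region, OGD/R 3 h, chr5:134627735-134627755, minus strand: gccatgggtcCcggagccaga
The next stretches, chosen after their values were seen, are the 30 nt with most sites called in all 3 libraries of control or of OGD/R 3 h and in no other library, 2 and 5 sites. Only these sites are in capitals, and 3 cytosines of the Pabpc1 stretch and 1 of the Eif4g1 stretch that were called otherwise are in lower case.
Pabpc1, 5′ untranslated region, control, chr15:36608733-36608762, minus strand: gacccgcccgccCgcggCcccgcagctcca
Eif4g1, start codon region, OGD/R 3 h, chr16:20672823-20672852, plus strand: ctaCgtctgtgCggctgCgtggggCtCggc

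OGD/R 3 h libraries listed the most sites in translation factor mRNAs. The control libraries held 64, 63 and 65 of these sites, the OGD/R 1.5 h libraries 70, 68 and 74, and the OGD/R 3 h libraries 121, 116 and 112. The groups did not overlap. The log2 ratio of the means was 0.86 for OGD/R 3 h against control, 0.72 for OGD/R 3 h against OGD/R 1.5 h and 0.14 for OGD/R 1.5 h against control. Their number of mRNA sites in all was also higher, 5269, 4733 and 4739, against 3886, 4146 and 3800 in control and 3508, 3556 and 3749 in OGD/R 1.5 h. Translation factors held 1.63 ± 0.0973% of the mRNA sites in control, 1.96 ± 0.0432% in OGD/R 1.5 h and 2.37 ± 0.0774% in OGD/R 3 h (SD, 3 libraries), again without overlap. The log2 ratio of OGD/R 3 h against control was 0.54 for this share and 0.21 for the share without Eef1a1, and for numbers of sites it was 0.53 without Eef1a1 and 0.34 with isolated sites, those with no other site within 10 nt. For OGD/R 3 h against OGD/R 1.5 h it was 0.092 with isolated sites and 0.048 for the share without Eef1a1, where the libraries overlapped in both, and 0.27 for the share. The smaller difference between OGD/R 1.5 h and control turned to -0.29 when a site had to be called in at least 2 of the 3 libraries of its group and to -0.25 when it had to be called in all 3, and these libraries overlapped with a score of at least 10 and without Eef1a1.

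**Figure D1:**
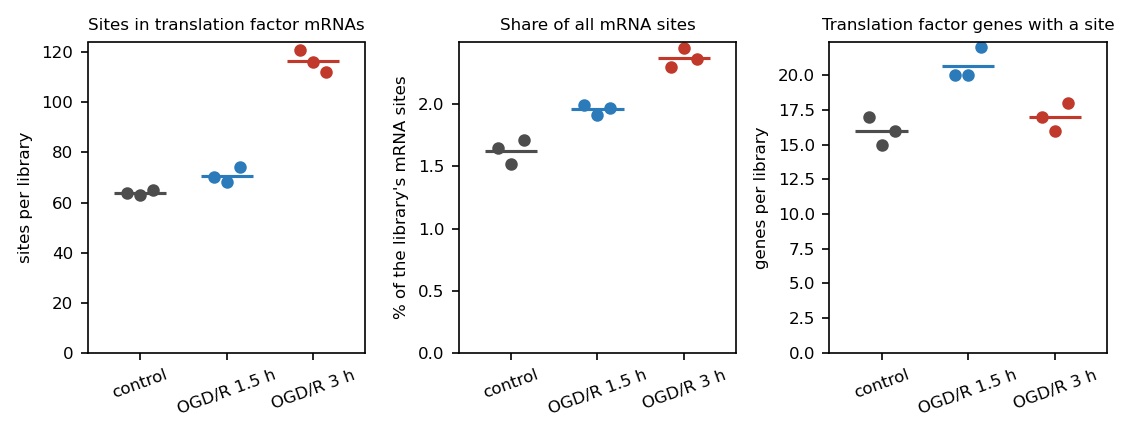
Sites in translation factor mRNAs per library, their share of all mRNA sites of the library in percent, and the number of translation factor genes with a site, with 1 point for each of the 3 libraries of a group and a line at their mean. OGD/R 3 h libraries held 112 to 121 sites in 16 to 18 genes, and control libraries 63 to 65 sites in 15 to 17 genes.

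The number of translation factor genes with a site took another course. It was 17, 15 and 16 in the control libraries, 20, 20 and 22 in OGD/R 1.5 h and 17, 16 and 18 in OGD/R 3 h. OGD/R 1.5 h lay above both other groups, which overlapped. With calls in at least 2 libraries it overlapped with both, and with a score of at least 10 with OGD/R 3 h. At that score OGD/R 3 h lay above control without overlap, by a mean difference of 3 genes. Over all genes the number with a site took a different course, with means of 1356 in control, 1267 in OGD/R 1.5 h and 1129 in OGD/R 3 h, each group below the one before without overlap. With sites called in all 3 libraries of a group, OGD/R 1.5 h and control had the same mean, and the order of OGD/R 3 h and OGD/R 1.5 h was reversed, with 2 more genes in OGD/R 3 h. Over the union of its libraries, control had sites in 20 of the genes, OGD/R 1.5 h in 25 and OGD/R 3 h in 20. In all groups 13 genes carried a site. Gspt1, a release factor, carried one in control only, Eef1g and Eif2d in OGD/R 1.5 h only, and Eef1b2, Eif1 and Eif5 in OGD/R 3 h only. Of these 6 genes, named after their values were seen, Eif2d had 5 sites, with scores of only 0 to 3, and the others 1 or 2 sites. Gspt1, Eef1g, Eif1 and Eif5 were each called in 1 library only, Eif2d in 2 and Eef1b2 in 3. A site in control or OGD/R 3 h was carried by 27 of the 29 genes, against 2267 of all 2607 genes. For control or OGD/R 1.5 h these numbers were 26 and 2328, and for either OGD/R group 28 and 2189. Genes particular to 1 group are not counted here over all genes, so they are not read as a trait of translation factors.

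Gene by gene, more translation factors lay above control in OGD/R 3 h than below it. Of 27 genes with a site in these 6 libraries, 10 had more sites in every OGD/R 3 h library than in every control library, or 37.0%, against 18.6% of all 2267 genes with a site. Fewer sites in every OGD/R 3 h library were found for 3, or 11.1%, against 18.7% of all genes. The 10 were Eef1a1, Eef1b2, Eef2, Eif3f, Eif4a2, Eif4ebp2, Eif4g1, Eif4g2, Eif4h and Tpt1, and the 3 were Eif3b, Eif4a3 and Eif4e. The median difference in sites per library was 0.333 over the 27 genes and -0.333 over all genes. With a score of at least 10 the genes with more sites were 5, without neighbours within 10 nt they were 6, and with calls in at least 2 libraries the genes with fewer were 7. As a share of the mRNA sites of the library the genes with fewer were 5.

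In OGD/R 1.5 h against control, 6 of 26 genes had more sites in every OGD/R 1.5 h library, or 23.1%, against 8.55% of all 2328 genes, and 3 had fewer, or 11.5%, against 15.1%. Those with more were Eef1a1, Eif4a2, Eif4g2, Eif5a, Eif6 and Etf1, and those with fewer were Eef2, Eif4a3 and Pabpc1. With a score of at least 10 they were 3 and 1, and the number with fewer was 0 without neighbours, 6 with calls in all 3 libraries and 5 without OGD/R 1.5 h replicate 1 or 3. The median difference was 0.333 over the 26 genes and -0.167 over all genes. In OGD/R 3 h against OGD/R 1.5 h, 10 of 28 genes had more sites, or 35.7%, against 19.9% of all 2189 genes, and 5 had fewer, or 17.9%, against 13.4%. Those with more became 5 with a score of at least 10 and 4 without neighbours. In this comparison Eif4g1 turned to -2.33 sites and Eif4h to -0.667 without neighbours, and Eif4g2 to -0.333 with a score of at least 10. The comparisons share libraries with each other and are not independent.

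**Figure D2:**
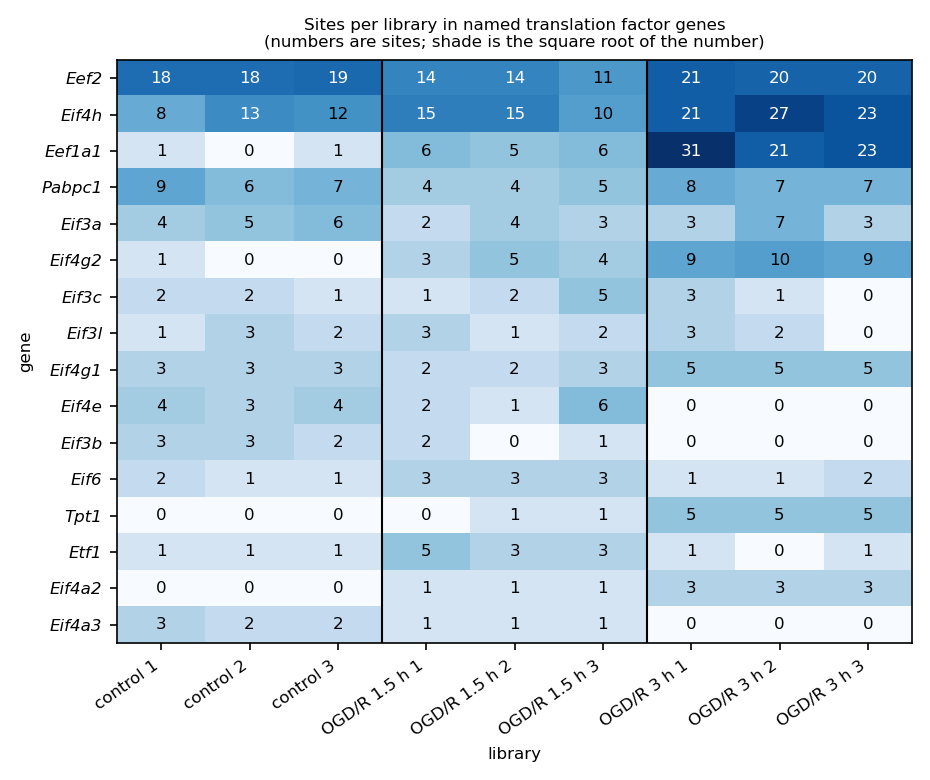
Sites per library in the 16 named translation factor genes, in rows, for the 9 libraries, in columns, with the number of sites in each cell and a shade that follows its square root. Eef2 carried sites in all libraries, Eef1a1 went from 0 or 1 in control to 21 to 31 in OGD/R 3 h, and Eif4e, Eif3b and Eif4a3 had 0 in OGD/R 3 h.

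The sites were concentrated in a few mRNAs. Eef2, Eif4h and Eef1a1 together held 178 of the 353 sites, or 50.4%. Per 1000 cytosines of the mRNA, Eef1a1 held 105 sites over the 9 libraries, Eef2 91.5 and Eif4h 89.2, followed by Pabpc1 with 39.8 and Tpt1 with 32.1. In contrast, Eif4g1 held 6.95 and Eif5b, a long mRNA, 1.27.

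Among the elongation factors, Eef1a1 (eEF1A1, which delivers aminoacyl-tRNA to the ribosome) differed most from control in OGD/R 3 h. In OGD/R 1.5 h the difference from control was larger in Eef2, at -5.33 sites against 5 in Eef1a1. For isolated sites in OGD/R 3 h it was 3.33 in Eef2, with overlap, and 2.33 in Eef1a1. Eef1a1 carried 1, 0 and 1 sites in the control libraries, 6, 5 and 6 in OGD/R 1.5 h and 31, 21 and 23 in OGD/R 3 h. The 3 groups were ordered without overlap, and 24.3 of the 52.3 sites by which the mean of OGD/R 3 h exceeded that of control lay in this gene. Of the 39 sites of OGD/R 3 h, 1 was shared with control and 6 with OGD/R 1.5 h. They lay between 23 and 1186 nt from the first base of the start codon, with a median of 813 nt, while the 8 sites of OGD/R 1.5 h had a median of 222.5 nt. The stretches of 51 nt around 28 of the 42 sites of Eef1a1 also stand in annotated pseudogenes, and 29 do when every C is read as T. Without these 29 sites the mean difference of OGD/R 3 h from control was 10 in place of 24.3. That of OGD/R 1.5 h was 0.333 in place of 5, where the libraries overlapped. The part of reads from such copies was not tested. Isolated sites alone gave 2.33 for OGD/R 3 h against control, and 0.333 in place of 19.3 against OGD/R 1.5 h, with overlap. Its leading sites in OGD/R 3 h had scores of 88, 113 and 131 at position 78479051 of chromosome 9 and of 100, 195 and 52 at position 78480631, neither of which was called in the other 6 libraries. At position 78480518, called only in OGD/R 1.5 h, the scores were 116, 55 and 151. The first of these 3 sites has no pseudogene copy, and the other 2 have one. The paralog Eef1a2, the form of mature neurons and muscle, carried no site, nor did Eef1d and Eef1e1. Eef1b2, which recharges eEF1A with GTP, had 1 site, 2 nt before the start codon, in each OGD/R 3 h library. Its scores were 30, 6 and 2, so with a score of at least 10 the group overlapped with control.

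Eef2 (eEF2, which moves the ribosome along the mRNA by 1 codon) had the most distinct sites over the 9 libraries, 79, although Eef1a1 and Eif4h had higher means per library in OGD/R 3 h. It had 18, 18 and 19 sites in the control libraries, 14, 14 and 11 in OGD/R 1.5 h and 21, 20 and 20 in OGD/R 3 h. Thus the OGD/R 1.5 h libraries lay below and the OGD/R 3 h libraries above control. With sites called in at least 2 of the 3 libraries, OGD/R 3 h lay below control as well, by a mean difference of -3.67 sites. With a score of at least 10 it lay above control without overlap, by a mean difference of 5.33 sites. As a share of the mRNA sites of a library, Eef2 held 0.463%, 0.434% and 0.500% in control and 0.399%, 0.423% and 0.422% in OGD/R 3 h, which is lower in every library, so only the number of sites was higher. The lower number in OGD/R 1.5 h overlapped with control at a score of at least 10 and for isolated sites. Of its 79 sites, 78 lay in the coding sequence outside the regions of the start and stop codons, and the medians of the groups were close, at 1009.5, 1022 and 986 nt from the start codon. Of the 45 sites of OGD/R 3 h, 12 were among the 32 sites of control, which is 26.7% and 37.5% of them, more than the 16.9% and 20.5% found over all mRNA sites. In control, 6 of its sites were called in all 3 libraries, in OGD/R 1.5 h none and in OGD/R 3 h 3. The highest scores of control, 359, 398 and 215, were at position 81179194 of chromosome 10, which was not called in any OGD/R library. Eef2k, the kinase that inhibits eEF2, and Eef2kmt had no site.

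The eIF4 factors bind the cap and unwind the mRNA. Of 17 genes of this group, with the 4E-binding proteins, 8 carried sites, at 20, 22 and 24 per library in the control libraries, 25, 25 and 26 in OGD/R 1.5 h and 43, 50 and 45 in OGD/R 3 h. Every OGD/R library lay above every control library. Eif4h, a cofactor of the helicase eIF4A, held the largest part, with 8, 13 and 12 sites in the control libraries, 15, 15 and 10 in OGD/R 1.5 h and 21, 27 and 23 in OGD/R 3 h. Control and OGD/R 1.5 h overlapped, and OGD/R 3 h lay above both, but as a share of the mRNA sites OGD/R 3 h overlapped with OGD/R 1.5 h. Its sites were shared more than those of Eef2, with 13 of the 19 control sites, or 68.4%, also called in OGD/R 3 h. All 57 lay between 11 and 601 nt after the first base of the start codon, within the coding sequence, and 16 of them in the start codon region. The mean difference of OGD/R 3 h from control, 12.7 sites, was 1.67 with a score of at least 10 and 3 for isolated sites, and the libraries overlapped in both. The site at position 134627745 of chromosome 5, particular to OGD/R 3 h, had scores of 113, 44 and 86.

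The scaffold proteins eIF4G1 and its relative encoded by Eif4g2, which lacks the part that binds eIF4E, also carried more sites in OGD/R 3 h. Eif4g1 had 3 sites in each control library, 2, 2 and 3 in OGD/R 1.5 h and 5 in each OGD/R 3 h library. None of the 5 was called in the other groups. They lay from 85 to 62 nt before the start codon, in the stretch shown above. Its last base, 59 nt before the start codon, was called in 2 control libraries and all 3 of OGD/R 1.5 h, and another site of this region, 40 nt before the codon, in 1 control library. A site particular to control lay in the coding sequence at position 20679955 of chromosome 16, with scores of 182, 161 and 343. With sites that have no neighbour within 10 nt, Eif4g1 stood at -3 against control, since these 5 sites stand close together. With predicted transcripts added, its difference of OGD/R 3 h from control was 8.33 in place of 2, and from OGD/R 1.5 h 9 in place of 2.67. Eif4g2 had 1, 0 and 0 sites in the control libraries, 3, 5 and 4 in OGD/R 1.5 h and 9, 10 and 9 in OGD/R 3 h, and the groups did not overlap. With a score of at least 10 the difference of OGD/R 3 h from control was 1 in place of 9, with overlap. Its site at position 111081531 of chromosome 7, 16 nt after the first base of the start codon, was called only in OGD/R 1.5 h, with scores of 20, 7 and 44.

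The helicase genes of the family went separate ways. Eif4a2 had 0 sites in each control library, 1 in each OGD/R 1.5 h library and 3 in each OGD/R 3 h library, all 4 distinct sites within 26 nt of the first base of the start codon. With a score of at least 10, OGD/R 1.5 h overlapped with both other groups. Eif4a3, a component of the exon junction complex, had 3, 2 and 2 sites in control, 1 in each OGD/R 1.5 h library and 0 in OGD/R 3 h, but control and OGD/R 1.5 h overlapped for isolated sites and with calls in at least 2 libraries. Eif4a1 carried no exonic site. Eif4e, which binds the cap itself, had 4, 3 and 4 sites in the control libraries, 2, 1 and 6 in OGD/R 1.5 h and 0 in OGD/R 3 h. The groups control and OGD/R 1.5 h overlapped, and both lay above OGD/R 3 h, though not for isolated sites. The 51 nt around each of the 9 Eif4e sites also stand in annotated pseudogenes, so none was left without such sites, and the part of reads from copies was not tested. Its repressor Eif4ebp2 had 1 site in each control library, 1, 0 and 0 in OGD/R 1.5 h and 4 in each OGD/R 3 h library, and none of the 4 was called elsewhere. The scores of these 4 sites were 1, 2 and 3, then 20, 192 and 44, then 6, 2 and 0, and last 6, 10 and 18. The control site had 11, 99 and 14. With a score of at least 10, OGD/R 3 h overlapped with both other groups. Eif4ebp1 and Eif4ebp3 had no site.

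eIF3 is the large complex that holds the small subunit ready, and 6 of its 14 genes carried sites. Their number per library was 10, 13 and 12 in the control libraries, 9, 10 and 13 in OGD/R 1.5 h and 10, 11 and 4 in OGD/R 3 h, and the groups overlapped. Eif3a, its largest subunit, had 4, 5 and 6 sites in the control libraries, 2, 4 and 3 in OGD/R 1.5 h and 3, 7 and 3 in OGD/R 3 h. It held the only translation factor site called in all 9 libraries, at position 60762157 of chromosome 19 in the stop codon region, 76 nt before the last base of the stop codon. Its scores were 481, 583 and 292 in the control libraries, 1000, 887 and 717 in OGD/R 1.5 h and 23, 61 and 370 in OGD/R 3 h. The OGD/R 1.5 h scores lay above all others, with 1 at the cap of 1000, and OGD/R 3 h overlapped with control. Eif3b had 3, 3 and 2 sites in the control libraries, 2, 0 and 1 in OGD/R 1.5 h and 0 in OGD/R 3 h, and with a score of at least 10 the difference of OGD/R 3 h from control was 0, and for isolated sites it was -0.667 with overlap. Eif3c and Eif3l, with 12 and 10 distinct sites, overlapped in all groups, at 0 to 5 and 0 to 3 sites per library.

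Sites called throughout a comparison were few. Of 294 mRNA sites called in all control and OGD/R 1.5 h libraries, 5 lay in translation factors, and 1 of them, that of Eif3a, had higher scores in every OGD/R 1.5 h library, against 9.18% of the 294, and 0 had lower scores, against 13.6%. Of 250 sites called in all control and OGD/R 3 h libraries, 2 lay in translation factors, 0 of them higher in OGD/R 3 h, against 10.8%, and 0 lower, against 15.6%. Of 203 sites called in all OGD/R libraries, 2 lay in translation factors, 0 higher in OGD/R 3 h than in OGD/R 1.5 h, against 12.8%, and 1, Eif3a again, lower, against 15.3%. With so few sites, leaving out a library moved these counts to 2 at most.

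The remaining initiation factors carried few sites. Eif6, which keeps the large subunit from joining too early, had 2, 1 and 1 sites in control, 3 in each OGD/R 1.5 h library and 1, 1 and 2 in OGD/R 3 h. OGD/R 1.5 h lay above both other groups, although not with a score of at least 10 or for isolated sites, and its leading Eif6 site, at position 155823868 of chromosome 2, had scores of 176, 86 and 561 and was called in no other group. Eif5a, which helps ribosomes through difficult peptide bonds, had 0 sites in control, 1 in each OGD/R 1.5 h library and 0, 0 and 1 in OGD/R 3 h. Its OGD/R 1.5 h site had scores of 57, 38 and 101. Of the subunit genes of eIF2 and eIF2B, only Eif2s2 carried sites, with 0 to 2 per library and none in OGD/R 3 h, and both of its sites have a pseudogene copy. Eif2a and Eif2d encode separate factors; the first had no site and the second those of OGD/R 1.5 h given above. The 4 eIF2 kinases had no exonic site in any library.

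Pabpc1, which coats the poly(A) tail and contacts eIF4G, had 9, 6 and 7 sites in the control libraries, 4, 4 and 5 in OGD/R 1.5 h and 8, 7 and 7 in OGD/R 3 h. OGD/R 1.5 h lay below both other groups, which overlapped, and with a score of at least 10 its difference from control was -0.333 in place of -3. It overlapped with both at that score and for isolated sites. None of the 10 sites of OGD/R 3 h was among the 13 of control, against 16.9% over all mRNA sites, and both groups had a mean of 7.33 sites. In this mRNA 12 of 28 sites lay in the 5′ untranslated region and 9 in the start codon region. Pabpc4 had no site. Tpt1 (TCTP, a growth-related protein that binds elongation factors) had 0 sites in each control library, 0, 1 and 1 in OGD/R 1.5 h and 5 in each OGD/R 3 h library, all of them between 81 and 14 nt before the start codon. For isolated sites the difference of OGD/R 3 h was 1 in place of 5 from control and 0.333 in place of 4.33 from OGD/R 1.5 h, the latter with overlap. The release factor Etf1 had 1 site in each control library, 5, 3 and 3 in OGD/R 1.5 h and 1, 0 and 1 in OGD/R 3 h, so that OGD/R 1.5 h lay above both other groups, which was not so for isolated sites or with a score of at least 10.

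**Figure D3:**
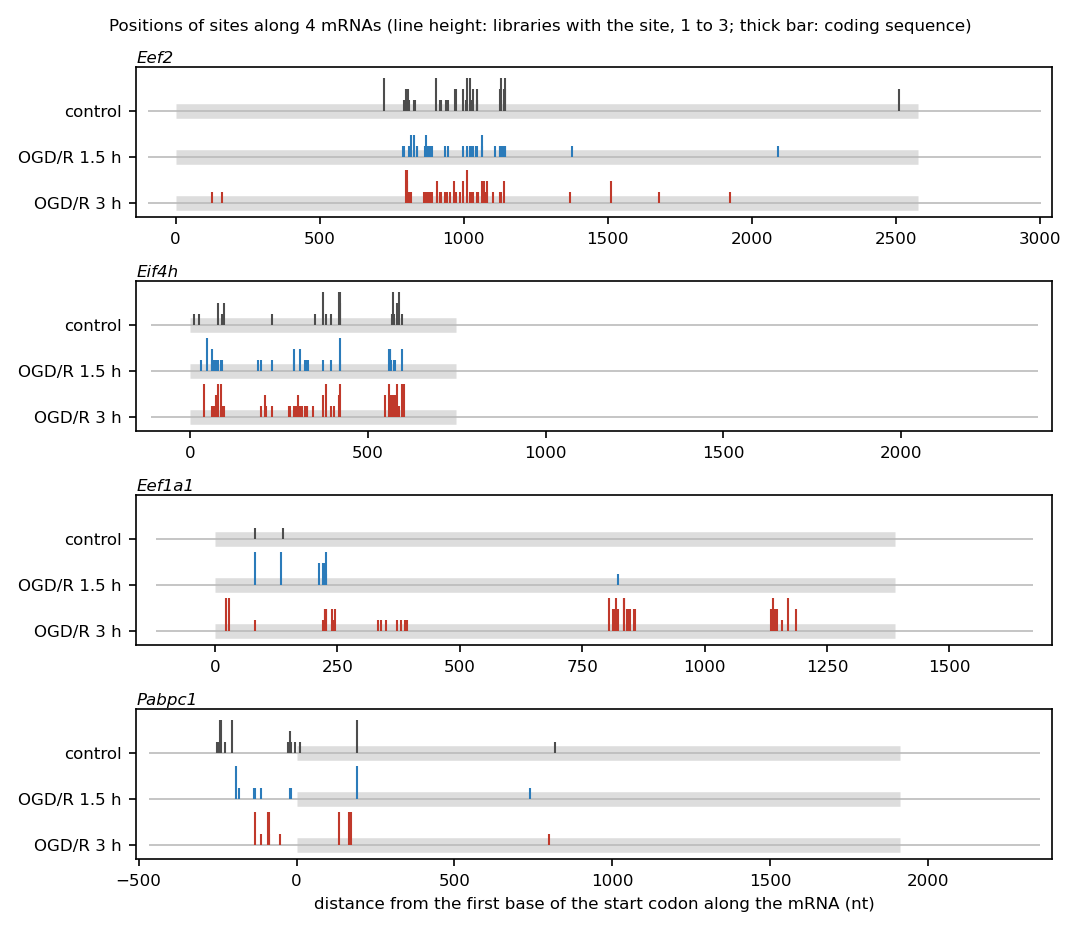
Distance of each site from the first base of the start codon, in nt along the mRNA, in Eef2, Eif4h, Eef1a1 and Pabpc1, with 1 row for each group, a line for each site whose height is the number of libraries (1 to 3) that called it, and a thick bar for the coding sequence. The median Eef2 site lay at 1009.5 nt in control, 1022 nt in OGD/R 1.5 h and 986 nt in OGD/R 3 h, those of Eif4h between 11 and 601 nt, those of Eef1a1 reached 1186 nt in OGD/R 3 h, and 21 of the 28 Pabpc1 sites lay in the 5′ untranslated and start codon regions.

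Each site was placed in a region of its mRNA, where a start or stop codon region reaches 100 nt up and down from its codon. The coding sequence held 72.4 ± 0.576% of the translation factor sites of a library in control, 68.7 ± 5.00% in OGD/R 1.5 h and 66.4 ± 5.13% in OGD/R 3 h (SD, 3 libraries). Among all mRNA sites these shares were lower, at 50.4%, 57.5% and 46.6%. The start codon region held 16.1 ± 0.689% in control, with 15.6% to 16.9%, and 24.7 ± 6.41% and 27.6 ± 3.56% in OGD/R 1.5 h and OGD/R 3 h, with lowest values of 17.6% and 24.1%. Both OGD/R groups lay above control and overlapped with each other, but OGD/R 1.5 h overlapped with control at a score of at least 10 and for isolated sites. Among all mRNA sites, 28.1% lay in this region for control, 23.3% for OGD/R 1.5 h and 31.0% for OGD/R 3 h. The difference between OGD/R 3 h and control was 11.4 percentage points for translation factors, it was 38.9 points for sites called in all 3 libraries of a group, and it was 1.53 points for sites without a neighbour within 10 nt, where the libraries overlapped. In ribosomal protein mRNAs, the share of the start codon region went the other way, from 63.2 ± 7.96% in control to 31.2 ± 4.62% in OGD/R 3 h. The number of sites there did not fall, at 10, 10 and 15 in control and 14, 14 and 16 in OGD/R 3 h. Their coding sequence held 3, 5 and 4 sites in control and 25, 25 and 21 in OGD/R 3 h.

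The 3′ untranslated region of translation factors was all but empty, with 1 site among 6664 cytosines, in Eif1, called in 1 OGD/R 3 h library. It held 0.298% of the translation factor sites in OGD/R 3 h and none in the other groups. Of all mRNA sites it held 6.85% in control, 7.21% in OGD/R 1.5 h and 7.80% in OGD/R 3 h. Per 1000 cytosines of the 29 mRNAs, the start codon region held 11.5 sites in control, 16.1 in OGD/R 1.5 h and 23.0 in OGD/R 3 h, and the coding sequence 8.85, 11.7 and 15.8. These values come from all sites of the 3 libraries together. In single libraries the coding sequence held 46, 46 and 47 sites for control and 47, 44 and 55 for OGD/R 1.5 h, which overlap, and 82, 82 and 68 for OGD/R 3 h. Around the stop codon the values were 2.25, 2.25 and 0.749, and in the 5′ untranslated region 6.99, 5.99 and 6.99. The increase in OGD/R 3 h over control was thus found in the start codon region and the coding sequence, and not in the 5′ untranslated or stop codon regions. Against OGD/R 1.5 h, OGD/R 3 h libraries also held more sites in the 5′ untranslated region, 5, 5 and 7 against 1, 3 and 4. The control libraries held 6, 4 and 5 there.

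**Figure D4:**
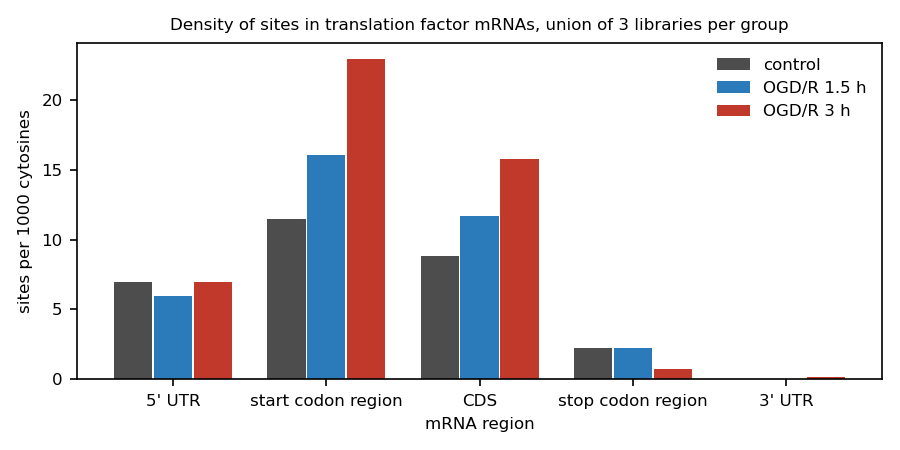
Sites per 1000 cytosines in each region of the 29 translation factor mRNAs with a site, from the union of the 3 libraries of each group. The start codon region rises from 11.5 in control to 16.1 in OGD/R 1.5 h and 23.0 in OGD/R 3 h, and the 3′ untranslated region holds 0 or 0.150.

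In the sequence context of the sites, CG held 29.2 ± 0.561% of the translation factor sites in control, 25.5 ± 2.24% in OGD/R 1.5 h and 22.9 ± 1.35% in OGD/R 3 h (SD over 3 libraries). Control lay above both OGD/R groups, as it did among all mRNA sites, at 27.4%, 22.0% and 21.0%. For translation factors OGD/R 1.5 h overlapped with control at a score of at least 10, without Eef1a1 and without pseudogene copies. CHH, where H stands for any base but G, held 39.0 ± 4.85%, 36.3 ± 5.70% and 43.2 ± 1.89%, and these groups overlapped. Among all mRNA sites CHH rose without overlap, from 33.3% to 38.2% and 41.8%. CHG held 31.8%, 38.1% and 33.8% of the translation factor sites and 39.3%, 39.9% and 37.2% of all mRNA sites. CG stood at 24.6% of the 353 sites but at 11.8% of the cytosines of the same mRNAs, and CHH at 41.1% and 63.7%. At least 2 guanines among the next 3 bases followed 26.6% of the sites, 26.4% of all mRNA sites and 2405 of the 20103 cytosines. By library this share had means of 28.2% for control, 33.1% for OGD/R 1.5 h and 24.0% for OGD/R 3 h, against 32.4%, 26.8% and 24.3% of all mRNA sites. The motif CNGGG with the site as its first base, searched on the strand of the site, was found at 8 of the 353 sites, or 2.27%, against 3.27% of all mRNA sites and 1.65% of the cytosines, and CTCCA at 3, or 0.850%, against 0.421% and 0.696%. The mean share of CNGGG was 1.04%, 4.19% and 0.563% in the groups, against 3.98%, 3.48% and 3.32% of all mRNA sites. In codons, the third position held 39.2% of the 296 sites and 36.6% of the cytosines. By group it held 48.0% of the sites in control, 36.6% in OGD/R 1.5 h and 41.0% in OGD/R 3 h.

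Neighbouring sites were frequent. The share of translation factor sites with a second site of the library at most 10 nt away was 46.4 ± 1.93% for control, 42.4 ± 2.31% for OGD/R 1.5 h and 62.7 ± 2.25% for OGD/R 3 h (SD, 3 libraries). Among all mRNA sites these shares were 46.7%, 39.6% and 51.1%. OGD/R 3 h lay above both other groups on each list, and neighbouring cytosines share reads, so such sites are not independent of each other.

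Most sites were found in 1 group. Of the 353 sites, 54 were called in control only, 73 in OGD/R 1.5 h only, 136 in OGD/R 3 h only and 14 in all groups, or 15.3%, 20.7%, 38.5% and 3.97%, against 23.4%, 24.1%, 33.4% and 3.62% of all mRNA sites. OGD/R 3 h and control shared 30 sites, which are 15.2% of the 197 sites of OGD/R 3 h and 26.5% of the 113 of control. Among all mRNA sites the same shares were 16.9% and 20.5%. OGD/R 1.5 h and control shared 43 sites, 29.3% and 38.1% of their sites, against 26.3% and 27.2% of all mRNA sites. OGD/R 3 h and OGD/R 1.5 h shared 45, or 22.8% and 30.6%, against 18.3% and 21.4%. Called in all 3 libraries of 1 group and in no other were 10 sites of control, 10 of OGD/R 1.5 h and 42 of OGD/R 3 h, the latter with 8 in Eef1a1 and 5 each in Eif4g1, Eif4g2, Pabpc1 and Tpt1. These are 8.85%, 6.80% and 21.3% of the sites of the groups, against 14.9%, 8.93% and 22.4% over all mRNA sites, so OGD/R 3 h had the highest share on both lists. Of the translation factor sites in any 2 libraries, 34.4% to 39.6% were common to both within control, 22.0% to 27.9% within OGD/R 1.5 h, 40.7% to 42.9% within OGD/R 3 h and 5.08% to 8.02% across control and OGD/R 3 h. The means of these pairs were 37.2%, 25.5%, 41.6% and 6.31%, against 40.5%, 30.2%, 44.1% and 7.14% for all mRNA sites. Across control and OGD/R 1.5 h the mean was 12.1%, and across the OGD/R groups 7.03%, against 10.6% and 6.93% for all mRNA sites. Of the 353 sites 151, or 42.8%, were called in a single library, against 49.0% of all mRNA sites.

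Ribosomal protein mRNAs, the other large part of the translation machinery, were set beside them. Of 91 cytosolic ribosomal protein genes 29 carried a site, or 31.9%, with 124 sites in all. They held 18, 16 and 21 sites in the control libraries, 24, 18 and 17 in OGD/R 1.5 h and 51, 47 and 44 in OGD/R 3 h. Their log2 ratio of OGD/R 3 h to control was 1.37, against 0.86 for translation factors, while OGD/R 1.5 h overlapped with control. The number of ribosomal protein genes with a site went from 12, 9 and 11 in control to 16, 15 and 15 in OGD/R 3 h without overlap, while that of translation factor genes overlapped and that of all genes was lower in OGD/R 3 h, at 1129 against 1356.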

How the data were processed

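After removal of rRNA and bisulfite conversion, the authors trimmed reads with cutadapt 1.9.3 and mapped them to mm10 (their processing notes name STAR, the methods of the paper meRanGh); sites come from meRanCall, library by library. The deposited score is 10 times the caller's score without its decimals, at most 1000, with no correction for depth; nearly all held values fit this, checked in OGD/R 3 h libraries 1 and 2 only. The 9 mock libraries were not analysed here.

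Analysis used Python 3.11.15, numpy 2.4.6, samtools 1.23.1 and matplotlib 3.10.9. Each site was placed on the curated RefSeq or mitochondrial transcript with the longest coding sequence; this set was chosen after seeing the data. Placement was tested on simulated transcripts. Held coverage values served to compare replicates and were absent for OGD/R 1.5 h. Pseudogene copies are exact matches of 51 nt in annotated RefSeq pseudogenes, found for 40 sites. Values without copies leave out the 42 sites that match when every C is read as T.

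Members and lists were chosen with earlier results of these data known. Named were the 12 genes with most sites, up to 5 with the largest difference in each direction from control without overlap, and genes with a site in all libraries; named sites were those in at least 8 libraries and the 4 leading ones particular to each group. Other genes were chosen after their values were seen. No test was run, since a group counts as 1 sample.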

Additional observations from a re-analysis of the deposited data

Results flagged for a closer look

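Eef2 moved in opposite directions in the OGD/R groups. Every OGD/R 1.5 h library had fewer Eef2 sites than every control library, and every OGD/R 3 h library had more. The mean differences from control were -5.33 and 2 sites per library, 7.33 sites apart. This difference was not tested, both are taken from the same control libraries, and the second turns when sites need calls in at least 2 libraries or are given as a share of the mRNA sites.

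Signal outside the curated exons of translation factor genes enters the comparisons only where predicted transcripts are added, and then in part. Its sites numbered 47, 73 and 71 in the control libraries, 80, 83 and 73 in OGD/R 1.5 h and 93, 85 and 112 in OGD/R 3 h, with a mean of 96.7 in the last group and 63.7 in the first. None lay on the opposite strand. Most lay in small nucleolar RNA genes within introns, and their hosts differed in direction. Eif4a2 had 17, 10 and 10 sites of this kind in control and 31, 29 and 39 in OGD/R 3 h, without overlap. Eif4a1, whose exons had no site, had 16, 47 and 47 against 14, 7 and 22, with overlap.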

How the results depend on the processing

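No paired analysis was made, because no test was run and a group was counted as 1 sample. Coverage was not compared between groups, and a site that is not listed may have lacked it. Predicted transcripts, leaving out Eef1a1 (also from the share), leaving out sites with a pseudogene copy, and the share of mRNA sites for gene counts and single genes were chosen after seeing the data. Of 372 recomputed values, 293 stayed within the spread between libraries or within 1.5 times a count, 76 moved further and 3, of differences without overlap, changed direction; among 672 for single genes these were 572, 92 and 8. Differences whose libraries overlapped are counted by size alone, and of these a further 9 and 21 changed sign. The cause was not tested.

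Sites per library, as log2 ratios. For OGD/R 3 h against control, 0.86 became 1.08 with calls in all 3 libraries, 0.93 with a score of at least 10, 0.34 without neighbours within 10 nt, 0.54 as a share, 0.21 as a share without Eef1a1, 0.94 with predicted transcripts, 0.53 without Eef1a1 and 0.78 without pseudogene copies. For OGD/R 1.5 h against control, 0.14 became -0.29 with calls in at least 2 libraries, -0.25 with all 3, 0.061 with the score, with overlap, 0.24 without neighbours, 0.27 as a share, 0.037 without Eef1a1, with overlap, and 0.072 without copies. For OGD/R 3 h against OGD/R 1.5 h, 0.72 became 1.20 and 1.34 with calls in at least 2 and all 3 libraries, 0.87 with the score, 0.092 without neighbours, with overlap, 0.27 as a share, 0.048 as a share without Eef1a1, with overlap, and 0.49 without Eef1a1.

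Genes with a site. With the score, the difference of 1 between OGD/R 3 h and control became 3, without overlap. The 4.67 of OGD/R 1.5 h against control became 1.33 and 0 with calls in at least 2 and all 3 libraries, with overlap in both. The -3.67 of OGD/R 3 h against OGD/R 1.5 h became -1.33, with overlap, and 2 with such calls and -0.667 with the score, with overlap.

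Start codon share, in points. For OGD/R 3 h against control, 11.4 became 19.6 and 38.9 with calls in at least 2 and all 3 libraries, 16.4 with the score, 1.53 without neighbours, 15.2 with predicted transcripts and 16.8 without Eef1a1. For OGD/R 1.5 h against control, 8.54 became 19.7 and 40.4 with such calls.

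Coding sequence share. For OGD/R 3 h against control, -6.01 became -12.5 and -30.3 with calls in at least 2 and all 3 libraries, -11.5 with codon regions of 50 nt and -12.9 without Eef1a1. For OGD/R 1.5 h, -3.68 became -12.7 and -29.9 with such calls and 1.65 without neighbours, where the libraries had overlapped from the start.

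Context shares. CG in OGD/R 3 h against control went from -6.22 to -21.4 with calls in all 3 libraries, -10.3 with the score and -14.4 without neighbours; in OGD/R 1.5 h against control from -3.63 to -1.14 with calls in all 3; and in OGD/R 3 h against OGD/R 1.5 h from -2.58 to -20.2, -6.45 and -9.55 with calls in all 3, the score and without neighbours, and -5.21 without copies. CHH in OGD/R 3 h against control went from 4.20 to 10.1 without neighbours; in OGD/R 1.5 h from -2.69 to -10.5 and -17.7 with calls in at least 2 and all 3; and in OGD/R 3 h against OGD/R 1.5 h from 6.89 to 23.5 with calls in all 3 and 14.4 without neighbours.

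Gene counts. In OGD/R 3 h against control, 10 genes with more sites became 5 with the score and 6 without neighbours, and 3 with fewer became 7 and 5 with calls in at least 2 and all 3 libraries and 5 as a share. For OGD/R 1.5 h against control, 6 with more became 3 with the score, and 3 with fewer became 5, 6, 1 and 0 with calls in at least 2, in all 3, the score and without neighbours, and 3 to 5 with a library left out. The 10 genes higher in OGD/R 3 h against OGD/R 1.5 h became 5 and 4, and the 5 lower became 2 and 3, with the score and without neighbours.

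Site scores, with a library left out. Sites higher in OGD/R 3 h than in control ranged from 0 to 1 and lower from 0 to 2; for OGD/R 1.5 h against control the ranges were 1 to 2 and 0 to 1; sites higher in OGD/R 3 h than in OGD/R 1.5 h ranged from 0 to 1.

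Single genes without overlap that changed direction. In OGD/R 3 h against control, Eef2 turned from 2 sites to -3.67 and -3 with calls in at least 2 and all 3 libraries and to -0.0514 percentage points as a share, and Eif4g1 from 2 to -3 without neighbours. In OGD/R 3 h against OGD/R 1.5 h, Eif4g1 turned from 2.67 to -2.33 and Eif4h from 10.3 to -0.667 without neighbours, and Eif4g2 from 5.33 to -0.333 with the score and -0.667 without neighbours. Of those with overlap, in OGD/R 1.5 h against control, Eif4h went from 2.33 to -3 with calls in all 3 libraries, Eif3c from 1 to -1.33 with calls in at least 2, and Eif3b from -1.67 to 0.333 with the score and without neighbours.

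Named genes whose libraries came to overlap, besides those above. With a score of at least 10 these were, in OGD/R 3 h against control, Eif3b, Eif4g2 and Eif4h; in OGD/R 1.5 h against control, Eef2, Eif4a2, Eif6, Etf1 and Pabpc1; and in OGD/R 3 h against OGD/R 1.5 h, Eif4a2, Eif4a3, Eif4e, Eif6, Etf1 and Pabpc1. Without neighbours they were, in the same order, Eef2, Eif3b, Eif4e and Eif4h; Eef2, Eif4a3, Eif6, Etf1 and Pabpc1; and Eef1a1, Eif4e, Eif6, Etf1, Pabpc1 and Tpt1. With calls in at least 2 and all 3 libraries it was Eif4a3 in OGD/R 1.5 h against control, and with all 3 Eif4e in OGD/R 3 h against OGD/R 1.5 h. Without copies, Eef2 and Eif4e in OGD/R 3 h against control, Eef1a1 in OGD/R 1.5 h against control and Eif4e in OGD/R 3 h against OGD/R 1.5 h overlapped, and as a share Eef2 and Eif4h in the last comparison.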
